A study of Mus musculus with 12 samples.

Results

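Slc1a3 and Fabp7 are a pair of genes transcribed in radial glia and astrocytes, followed here in brains of 10-day-old C57Bl/6j mice in which the connexin gene Gja9 was intact or ablated. They were chosen by their log2 difference between Gja9 null and wildtype brain in these same samples, both reading higher in the null, so their differences between genotypes are given as a description, without a test. Each gene had 1 clone named for it alone on the cDNA array (Slc1a3 with gene number 20512, Fabp7 with 12140), and both clones had a value in all 12 samples. They are 2 of 13443 probes with values and 2 of 6427 genes. The study compared 4 wildtype brains, 4 brains with both copies of Gja9 ablated, written Gja9 (-/-) in the labels and Gja9_null here, and 4 brains with 1 copy ablated, Gja9 (+/-) or Gja9_het. Gja9 is an older name of Gjd2, the gene for connexin36, the main gap junction protein of electrical synapses between neurons. The labels give brain as the tissue, without a region, and do not name the sex of the mice, how the allele was made or whether animals were littermates. Each 2-colour array carried extracts of 2 replicates of 1 genotype, which makes 6 arrays in all, 2 per genotype. Values are the log2 signal relative to the mean signal of the sample, so that 0 is the mean.

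Slc1a3 encodes GLAST, also called EAAT1, a sodium-dependent transporter that carries glutamate out of the extracellular space into glia. It is made by radial glia in the developing brain and later by astrocytes, most of all by the Bergmann glia of the cerebellum. Fabp7 encodes the brain lipid-binding protein BLBP, a small cytosolic protein that binds long-chain polyunsaturated fatty acids. It marks radial glia and immature astrocytes, is a known target of Notch signalling, and declines as astrocytes mature. In bulk brain RNA, fewer cells of a type and less RNA per cell cannot be told apart.

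The proximal promoters are shown so that the upstream sequences of the 2 genes can be set side by side. They are RefSeq sequences of the build GRCm38.p6, the 250 bases before the annotated start of the gene and its first 50 bases, 5′ to 3′ on the strand of the gene, and both symbols had an entry. The Slc1a3 window is chr15:8710758-8711057 on the minus strand and the Fabp7 window is chr10:57784673-57784972 on the plus strand. Capitals mark matches, on either strand, to 4 short motifs: the RBPJ core TGGGAA, the NFI half-site TTGGC, the TATA box TATAAA and the CCAAT box CCAAT.
Slc1a3: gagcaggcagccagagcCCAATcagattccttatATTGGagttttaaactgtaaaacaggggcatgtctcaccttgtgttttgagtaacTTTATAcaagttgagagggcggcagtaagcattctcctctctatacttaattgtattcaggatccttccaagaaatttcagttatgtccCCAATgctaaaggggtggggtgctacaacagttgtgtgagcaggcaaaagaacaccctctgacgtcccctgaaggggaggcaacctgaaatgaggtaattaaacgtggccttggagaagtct
Fabp7: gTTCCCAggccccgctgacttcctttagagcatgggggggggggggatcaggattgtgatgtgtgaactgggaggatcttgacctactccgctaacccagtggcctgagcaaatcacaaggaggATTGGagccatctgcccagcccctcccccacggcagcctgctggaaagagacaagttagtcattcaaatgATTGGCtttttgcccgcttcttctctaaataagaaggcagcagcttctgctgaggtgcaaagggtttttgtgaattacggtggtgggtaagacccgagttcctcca
The RBPJ core, the motif of the Notch effector, occurred once in the Fabp7 window, on the opposite strand at base 2, and the Slc1a3 window had no match to it. It occurs in 25.6% of 32851 promoter windows of this length. The NFI half-site occurred at base 196 of the Fabp7 window, overlapping a CCAAT match on the opposite strand at base 195, and in 46.7% of all windows. CCAAT matched 3 times in the Slc1a3 window and 2 times in the Fabp7 window, and occurs in 37.4% of all windows. TATAAA matched once in the Slc1a3 window, on the opposite strand at base 90, and occurs in 13.6% of windows. A match is a description of the letters and not a measured binding site.

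As a rule the 2 colours of an array gave nearly the same values, so each genotype rests on 2 arrays more than on 4 samples. Which samples shared an array was read from the values, since the labels do not say. Over all features, meaning genes with their clones averaged and single probes without 1 gene name, the first and second array of wildtype stood a median of 0.36 apart, those of Gja9_null 0.43 and those of Gja9_het 0.28. The targeted gene gives no check of the labels here, as 0 probes are named for Gjd2. P-values measure only the spread between these samples, which the design text calls biological replicas. The fit treats the 2 samples of an array as correlated (0.927). With 2 arrays per genotype, p-values for genotype do not measure a spread between 4 independent brains.

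Slc1a3 read highest in the Gja9_null brains, intermediate in wildtype and lowest in Gja9_het. In wildtype its log2 signal was 1.55 in replicate 1, 1.72 in replicate 2, 1.57 in replicate 3 and 1.77 in replicate 4. In Gja9_null it was 2.82, 3.07, 1.94 and 2.36, and in Gja9_het 1.12, 1.36, 0.96 and 1.19, in the same order. The 4 samples of each genotype did not overlap with those of either other genotype in the deposited values. After local centring, described further on, wildtype overlapped with both other genotypes. The Gja9_null samples (lowest 1.91) then still lay above those of Gja9_het (highest 1.76). As signal relative to the sample mean, wildtype brains lay between 2.92 and 3.42, Gja9_null brains between 3.83 and 8.42 and Gja9_het brains between 1.95 and 2.56.

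**Figure D1:**
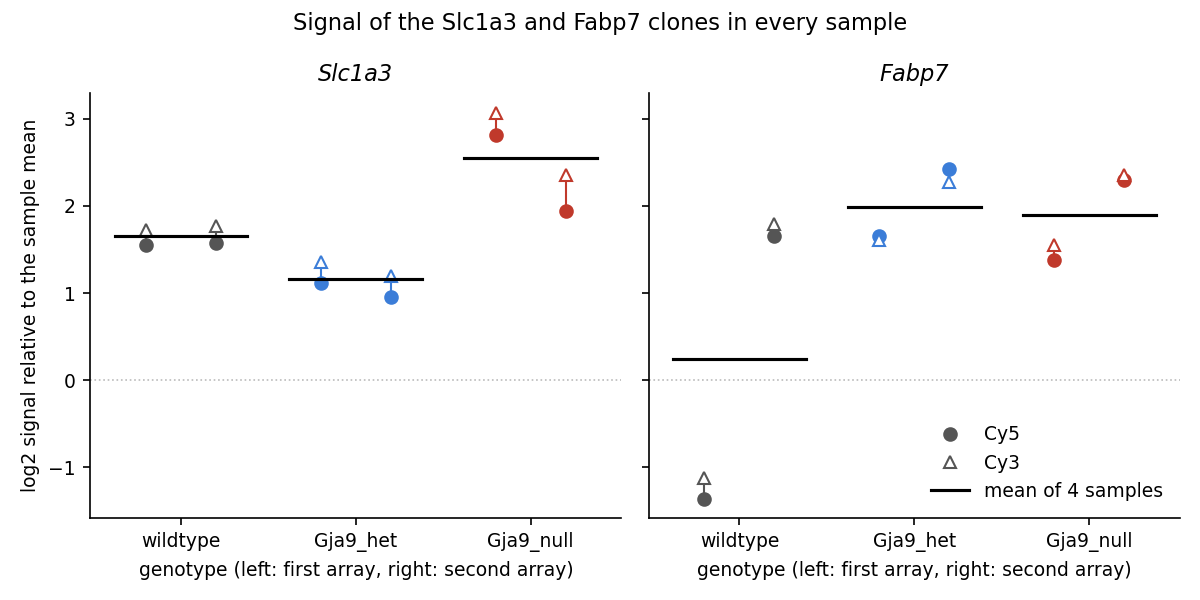
Log2 signal relative to the sample mean (vertical axis) of the Slc1a3 and Fabp7 clones in each of the 12 samples, by genotype (horizontal axis), with the first array of a genotype on the left and the second on the right. Filled circles are Cy5, open triangles Cy3, thin lines join the 2 colours of an array and black bars are means of 4 samples. Both Slc1a3 arrays of Gja9_null lie above all other arrays, while Fabp7 is below 0 on the first wildtype array alone.

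The mean log2 signal of Slc1a3 was 1.65 ± 0.11 in wildtype brains, against 2.55 ± 0.50 in Gja9_null and 1.16 ± 0.16 in Gja9_het (SD, n = 4). In the limma fit the difference from wildtype was 0.90 ± 0.31 in Gja9_null (SE, 1.86-fold) and -0.49 ± 0.31 in Gja9_het. The difference between Gja9_null and Gja9_het was 1.39 ± 0.31 (2.62-fold). Both comparisons with wildtype use the same 4 wildtype samples. Of 9514 features, 31 (0.326%) were called between Gja9_null and wildtype at an adjusted p under 0.05, 0 (0%) between Gja9_het and wildtype, and 26 (0.273%) between Gja9_null and Gja9_het. For Gja9_het against wildtype, 159 features were higher and 49 lower at an unadjusted p under 0.05 with limma, and array means in limma also called 0. A lack of overlap was common at this sample size: all 4 Gja9_null samples lay above all 4 wildtype samples in 7.52% of features and above all 4 Gja9_het samples in 10.2%, and all 4 wildtype samples lay above all 4 Gja9_het samples in 6.09%. The complete order seen for Slc1a3, with Gja9_null above wildtype above Gja9_het and no overlap, occurred in 28 features (0.294%).

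The 2 Gja9_null arrays differed in how far Slc1a3 stood above wildtype. The first array had a mean of 2.95 and the second 2.15, against 1.63 and 1.67 on the wildtype arrays and 1.24 and 1.08 on the Gja9_het arrays. The first Gja9_null array was thus 1.32 and 1.28 above the wildtype arrays, and the second 0.52 and 0.48 above them. A gap at least as large as the one between the Gja9_null arrays occurred in 21.9% of features. The gap of 0.04 between the wildtype arrays was small, since 93.7% of features had one at least as large.

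The first Gja9_null array also read high at probes numbered close to the Slc1a3 clone. Probe numbers are those of the value table, and the labels do not say how they map to the slide. Among the 55 probes with values within 50 numbers of the clone, the median deviation from the mean of the 12 samples was 0.50 on the first Gja9_null array, where Slc1a3 deviated by 1.16 and 3 of the 55 neighbours by at least as much. On the second Gja9_null array the neighbours had a median of -0.01 and Slc1a3 deviated by 0.36, with 9 of 55 at or above it. On the second Gja9_het array, Slc1a3 deviated by -0.71, at or below all 55 neighbours. When the local median was subtracted from each sample (local centring), the difference of Gja9_null from wildtype was 0.57 ± 0.21 and that from Gja9_het 0.91 ± 0.21. The array means of Slc1a3 were then 2.41 and 2.15 in Gja9_null, 1.93 and 1.49 in wildtype and 1.61 and 1.13 in Gja9_het, so the first Gja9_het array lay between the wildtype arrays. The samples of Gja9_null and wildtype then overlapped, with Gja9_null replicate 3 at 1.91 and wildtype replicate 2 at 2.07.

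Fabp7 read low on 1 wildtype array, while the other 5 arrays had means between 1.47 and 2.35. In wildtype its log2 signal was -1.36 in replicate 1, -1.12 in replicate 2, 1.65 in replicate 3 and 1.79 in replicate 4. In Gja9_null it was 1.38, 1.55, 2.30 and 2.36, and in Gja9_het 1.65, 1.61, 2.42 and 2.28, in the same order. Wildtype replicates 3 and 4 lay within the range of the Gja9_null samples and of the Gja9_het samples, so the groups overlapped. As signal relative to the sample mean, Fabp7 stood at 0.388 and 0.46 in wildtype replicates 1 and 2, and between 2.60 and 5.35 in the other samples.

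The mean log2 signal of Fabp7 was 0.24 ± 1.71 in wildtype brains, against 1.90 ± 0.50 in Gja9_null and 1.99 ± 0.42 in Gja9_het (SD, n = 4). The fitted difference from wildtype was 1.66 ± 0.67 in Gja9_null (SE, 3.16-fold) and 1.75 ± 0.67 in Gja9_het (3.37-fold), while Gja9_null and Gja9_het differed by -0.09 ± 0.67, less than the SD within either group. The Gja9_het samples did not lie clear of wildtype for Fabp7, as all 4 did for 8.67% of features. The SE of 0.67 compares with a median of 0.36 over all features, and 1.66% of features had one at least as large. Without both colours of the first wildtype array, a comparison chosen after seeing the data, the difference was 0.18 ± 0.45 in Gja9_null and 0.27 ± 0.45 in Gja9_het. Without the second wildtype array instead, it was 3.14 ± 0.48 and 3.24 ± 0.48. Both values for Fabp7 thus turned on which wildtype array was kept.

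The low reading of Fabp7 on the first wildtype array was among the most isolated in the data. The array mean there was -1.24, and the lowest other array, the first of Gja9_null, had 1.47, a distance of 2.71. No other feature of 9514 was as far below all other arrays on this array, the next being an unnamed probe at 2.66 and Gnb4, a G protein subunit gene, at 2.65. Counting any array and either direction, 4 features (0.042%) had 1 array at least that far from the rest. The gap of 2.96 between the wildtype arrays, a 7.79-fold ratio, was reached by 8 features (0.0841%). The corresponding gap was 0.86 in Gja9_null and 0.72 in Gja9_het.

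Both colours of the first wildtype array gave the low value, and most neighbouring probe numbers did not. The 48 neighbours with values had a median deviation of 0.39 on that array, against -2.62 for Fabp7, and all 48 lay above it. One of them, 27 numbers away, deviated by -2.57, and the next lowest by -0.38. It is the unnamed probe given above at 2.66, so the 2 features most isolated below on this array have close probe numbers. After local centring the 2 wildtype arrays read -1.62 and 1.80, the Gja9_null arrays 1.97 and 2.03 and the Gja9_het arrays 1.43 and 2.30. The difference of Gja9_null from wildtype was then 1.91 ± 0.71. What set the first wildtype array apart at this clone was not tested.

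**Figure D2:**
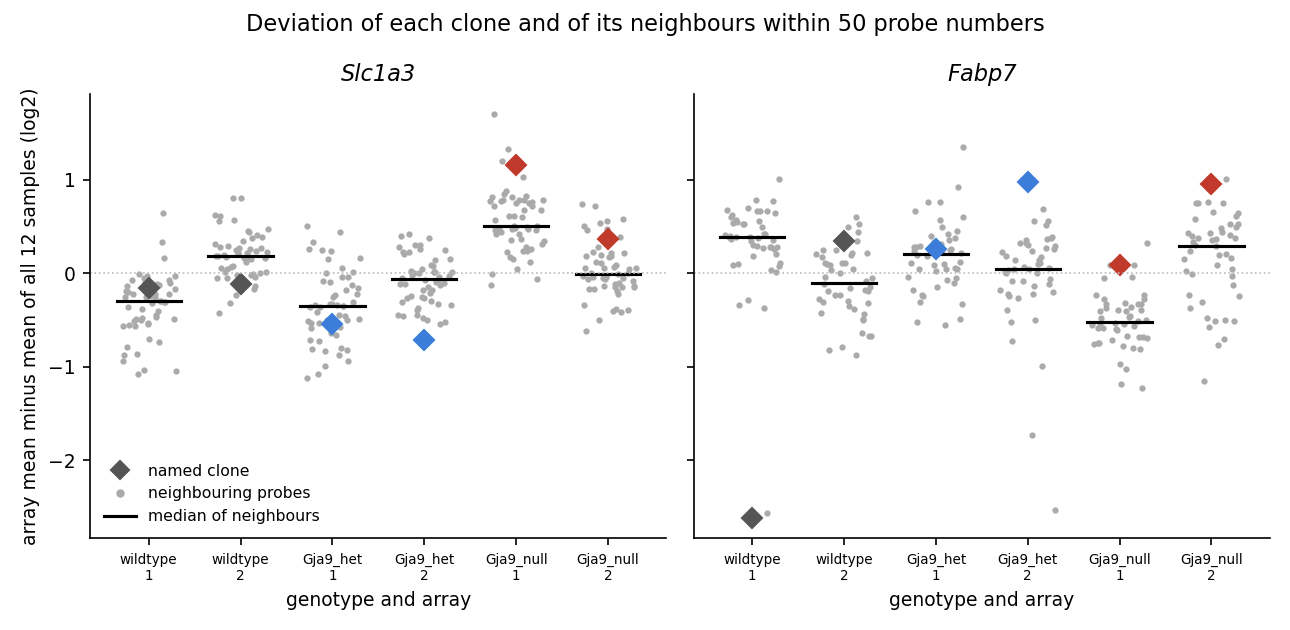
Deviation of each array mean from the mean of all 12 samples (vertical axis, log2) for the Slc1a3 and Fabp7 clones (diamonds) and for the probes within 50 probe numbers of each (grey points, spread by their offset), by genotype and array (horizontal axis). Black bars are the medians of the neighbours. Slc1a3 on the first Gja9_null array (1.16) sits above a raised local median (0.50), and Fabp7 on the first wildtype array (-2.62) sits far below its local median (0.39).

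Each gene read much the same in both colours of an array. Every array carries both dyes and 1 genotype, so the dye difference does not use the contrast for which the genes were chosen. Slc1a3 was lower in Cy5 than in Cy3 on 6 of 6 arrays, by array differences between -0.42 and -0.17. The fitted difference was -0.25 ± 0.05 (SE, limma adjusted p = 0.00733 over all features), where 4.93% of features were called lower in Cy5. The call depends on taking the colours of an array as a pair, since without the array as a block the same difference had an SE of 0.17 and a limma adjusted p of 1. Fabp7 was lower in Cy5 on 4 of 6 arrays, with a difference of -0.07 ± 0.11 (limma adjusted p = 0.666), which did not pass.

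The ways of fitting moved the 2 genes differently. The difference of Slc1a3 between Gja9_null and wildtype was 0.90 ± 0.36 on array means, 0.80 ± 0.30 after quantile normalization and 0.87 ± 0.31 after cyclic loess. It was 0.50 ± 0.30 without the first Gja9_null array and 1.30 ± 0.26 without the second. For Fabp7 the same difference was 1.66 ± 0.74 on array means, 1.62 ± 0.67 after quantile normalization and 1.65 ± 0.67 after cyclic loess, and leaving out a Gja9_null array gave 2.09 ± 0.84 (the first) or 1.23 ± 0.84 (the second).

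**Figure D3:**
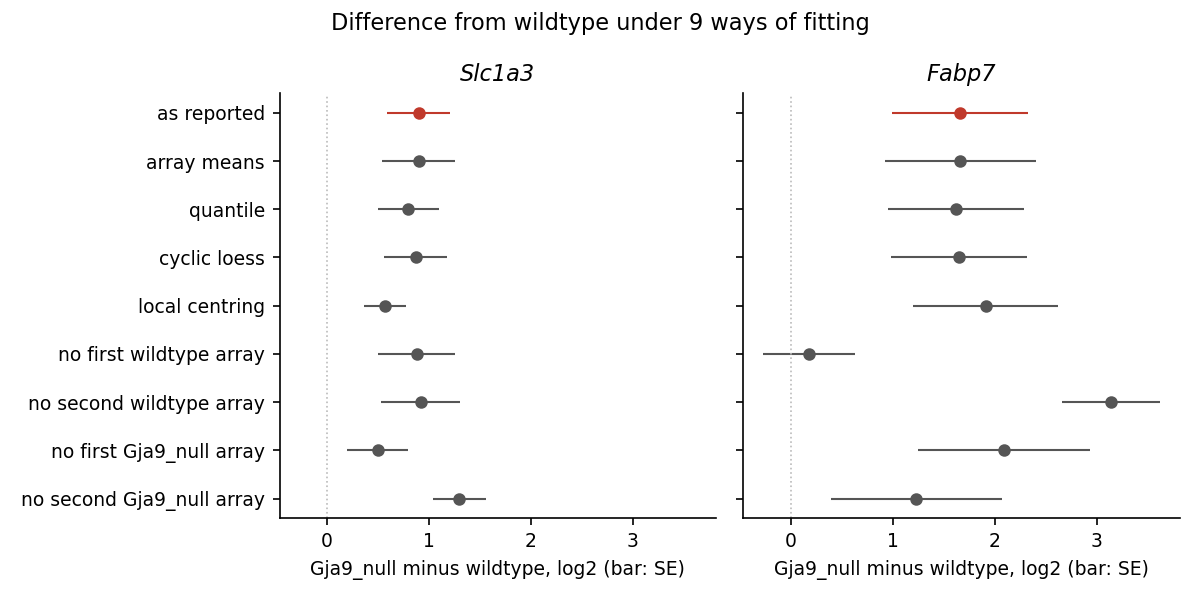
Log2 difference of Gja9_null from wildtype (horizontal axis, bars are SE) for Slc1a3 and Fabp7 as reported (red) and under 8 other ways of fitting (vertical axis). Slc1a3 ranges from 0.50 without the first Gja9_null array to 1.30 without the second, and Fabp7 from 0.18 without the first wildtype array to 3.14 without the second.

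The 2 genes did not share a pattern over the 6 arrays. Likeness was measured as the root mean square difference between array means after centring each gene on its own mean, over 6426 other genes. Fabp7 stood 1.37 from Slc1a3, rank 6313 of 6426 by likeness to Slc1a3, where the median gene stood at 0.75. By likeness to Fabp7, Slc1a3 ranked 4905 of 6426, where the median gene stood at 1.26. The measure grows with the size of a gene's own pattern, a root mean square of 1.22 for Fabp7 and 0.62 for Slc1a3. The genes most like Slc1a3 were Rnf114, a ubiquitin ligase gene, at 0.15, Adcyap1r1, the receptor for the neuropeptide PACAP, at 0.20, Tiam2, a Rac exchange factor gene, at 0.22, Lsm8, of the spliceosome, at 0.22 and Pex5, the peroxisomal import receptor, at 0.23. Those most like Fabp7 were Gnb4 at 0.33, Vps9d1 at 0.54, AI597479 at 0.56, Fh1, the fumarate hydratase gene, at 0.57 and Cdc42bpb, a kinase gene, at 0.60. All 5 of these had their lowest array mean on the first wildtype array, Gnb4 at -3.39 against values between -0.74 and -0.21 elsewhere. They were picked for likeness to Fabp7, whose largest deviation is on that array, so this was built into the choice. None of the 10 genes is in a marker list used here, but the lists cover a small part of the 6426 genes, so this count tells little. Unnamed probes were left out of this ranking. One of them, 27 numbers from the Fabp7 clone, followed Fabp7 closely over the 6 arrays. Its array means were -3.24 and -0.15 in wildtype, -0.59 and 0.33 in Gja9_null and -0.42 and 0.01 in Gja9_het. Those of Fabp7 were -1.24 and 1.72, 1.47 and 2.33, and 1.63 and 2.35, in the same order. Why these 2 clones read alike was not tested. After local centring, 0 of the 5 nearest to Slc1a3 and 2 of the 5 nearest to Fabp7 were among the nearest again.

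Other genes of the same 2 families were few. Of 7 genes of the SLC1 transporter family, only Slc1a3 had values. Of 13 fatty acid-binding and related lipid-binding protein genes, Fabp2, the intestinal member, was the other with values, and it differed by -1.02 ± 0.43 between Gja9_null and wildtype (SE, limma adjusted p = 0.377) and by -0.53 ± 0.43 between Gja9_het and wildtype.

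Other markers of radial glia and astrocytes did not pass the test in any comparison. Of 59 marker genes in the 2 lists, 31 had values. Gfap, Aqp4, Aldh1l1, S100b, Slc1a2, Nes, Vim and Pax6 were not among these, so the label of the 2 genes was checked on fewer defining markers than are usual. Of the 29 without Slc1a3 and Fabp7, 0 had a difference between Gja9_null and wildtype as high as that of Slc1a3. Over all features, 140 of 9514 reached it, Slc1a3 included. Since Slc1a3 was chosen by this difference and few features reach it, the count of 0 tests nothing. Among 8 radial glia and progenitor genes, 5 were higher and 3 lower in Gja9_null than in wildtype, with a median of 0.10, and 6 were higher and 2 lower in Gja9_het, with a median of 0.21. After local centring the first count turned to 3 higher and 5 lower, with a median of -0.04, so this list had no settled direction in Gja9_null. The median over all features was -0.10 in Gja9_null (0.02 after quantile normalization or cyclic loess) and 0.03 in Gja9_het. Sox9, a glial transcription factor gene, stood at -0.72 ± 0.49, Nr2e1, an orphan nuclear receptor gene of neural stem cells, at 0.36 ± 0.32 and Tnc, the tenascin C gene, at -0.30 ± 0.35, none of which passed with limma (smallest adjusted p = 0.614). No gene of this list had an unadjusted p under 0.05 in either comparison with wildtype, where 2.41% of all features were higher and 9.22% lower at that threshold in Gja9_null, and 1.67% and 0.515% in Gja9_het.

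Among 22 astrocyte and Bergmann glia genes, 9 were higher and 13 lower in Gja9_null than in wildtype, with a median of -0.11. After local centring 15 were higher and 7 lower, with a median of 0.22, and after quantile normalization 11 and 11, so this list had none either. Dio2, which converts thyroid hormone to its active form, stood at -0.99 ± 0.27 (limma adjusted p = 0.165) and Ttyh1, a membrane protein gene of neural progenitors and astrocytes, at 0.59 ± 0.27 (limma adjusted p = 0.428). They were the 2 genes of the list with an unadjusted p under 0.05 in this comparison. In Gja9_het 10 were higher and 12 lower than in wildtype, with a median of -0.08. Between Gja9_null and Gja9_het 12 were higher and 10 lower, with a median of 0.07. Dio2 at -1.04 ± 0.27 and Sox9 at -1.17 ± 0.49 had an unadjusted limma p under 0.05 there. At that threshold 3.64% of all features were higher and 11.3% lower. On the first wildtype array, where Fabp7 was low, 1 of the 22 genes and 1 of the 8 radial glia genes had their lowest array mean. Over all features 12.9% did. On the first Gja9_null array, where Slc1a3 was highest, 4 of the 22 and 0 of the 8 had their highest, against 20.6% of all features. These counts are too small to set the lists apart from all features. The summed signal of the 22 genes relative to the sample mean lay between 33.6 and 39.1 in wildtype, 31.2 and 43.3 in Gja9_null and 29.5 and 38.7 in Gja9_het. That of the 8 genes lay between 11.3 and 14.6, 12.5 and 14.1, and 11.2 and 13.1.

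**Figure D4:**
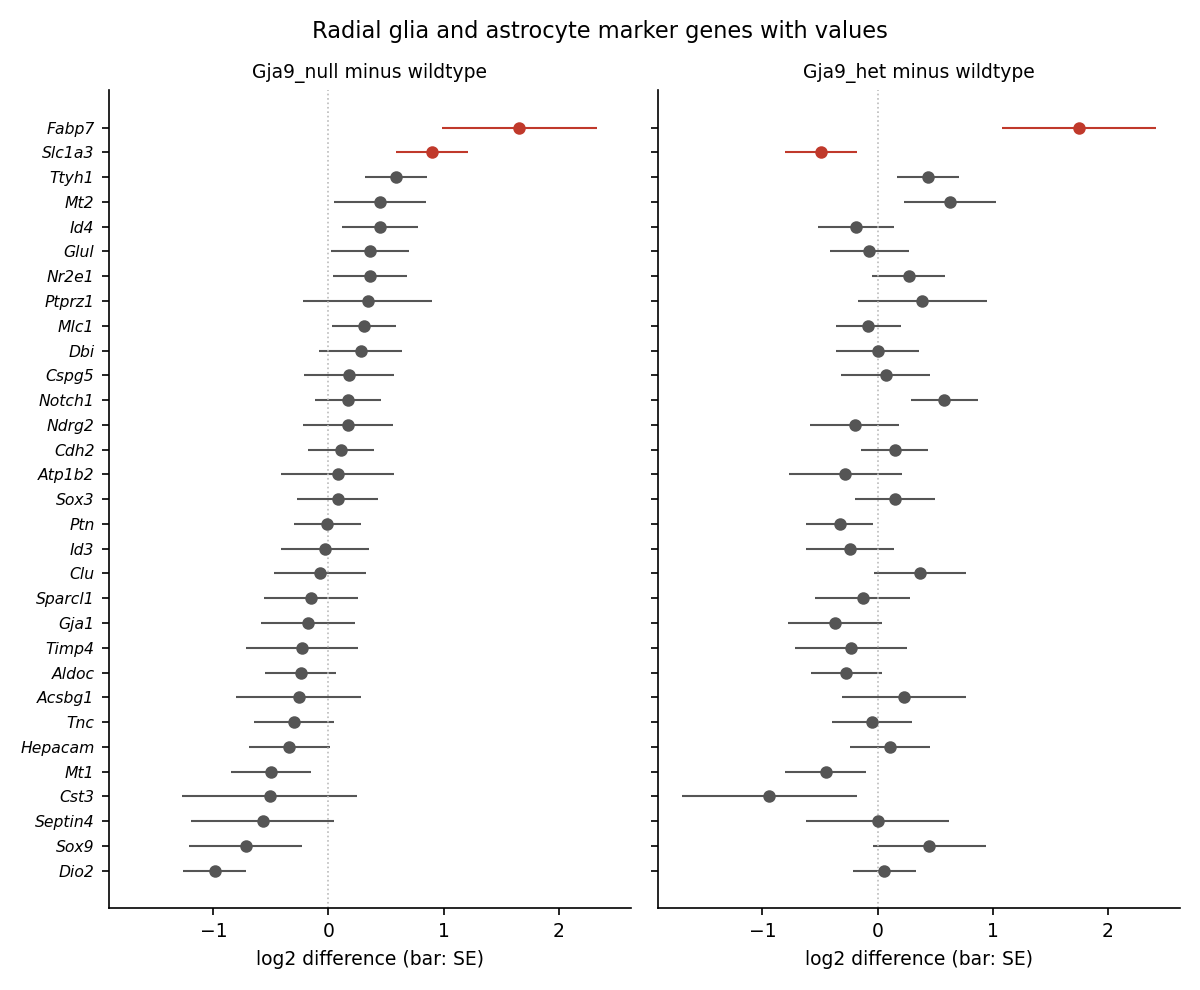
Log2 differences from wildtype (horizontal axes, bars are SE) of the 31 radial glia and astrocyte marker genes with values (vertical axis), in Gja9_null and in Gja9_het, with Slc1a3 and Fabp7 in red. The other 29 genes lie on both sides of 0, from -0.99 (Dio2) to 0.59 (Ttyh1) in Gja9_null.

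Genes around the functions of the 2 proteins did not pass either. The glutamate-glutamine cycle returns transmitter glutamate from glia to neurons as glutamine. Of its 10 other genes with values, 5 were higher and 5 lower in Gja9_null than in wildtype, with a median of -0.04 (7 and 3, median 0.18, after local centring). Slc38a3, a glutamine transporter of astrocytes, stood at 0.99 ± 0.33 (limma adjusted p = 0.268), Glud1, the glutamate dehydrogenase gene, at 0.52 ± 0.29 and Aldh18a1, of proline synthesis from glutamate, at -0.50 ± 0.30. The array means of Slc38a3 were -0.33 and -0.89 in Gja9_null, -1.51 and -1.68 in wildtype and -0.74 and -1.33 in Gja9_het. Both Gja9_null arrays were thus above both wildtype arrays, but the second lay below the first Gja9_het array.

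Of 17 genes of the Notch pathway and glial transcription factors, 7 were higher and 10 lower in Gja9_null than in wildtype, with a median of -0.06 and 0 called (9 and 8, median 0.02, after quantile normalization). Numbl, a Numb-like inhibitor of Notch, stood at -1.94 ± 0.59 (limma adjusted p = 0.217), Sox11 at -0.59 ± 0.35 and Hey1, a Notch target gene, at -0.54 ± 0.32. Numbl was lowest on the first Gja9_null array, at -5.03, and stood at -3.11 on the second, against -3.14 and -1.13 on the wildtype arrays. The second Gja9_null array thus lay just above the first wildtype array. Of 23 genes of fatty acid uptake and lipid handling, 12 were higher and 11 lower, with a median of 0.01 and 0 called (11 and 12, median -0.05, after local centring). Acsl5, which activates long-chain fatty acids, stood at -0.77 ± 0.29 (limma adjusted p = 0.324), Fads1, a fatty acid desaturase gene, at -0.78 ± 0.36 and Ppard, a lipid-sensing nuclear receptor gene, at -0.84 ± 0.46. In Gja9_het against wildtype and in Gja9_null against Gja9_het, 0 genes of these 3 lists were called with limma. Local centring gave 1 call, Numbl lower in Gja9_null than in Gja9_het (-2.65 ± 0.59 as deposited, limma adjusted p = 0.0723). At an unadjusted p under 0.05 with limma, 1 gene of the Notch list was higher in Gja9_het than in wildtype, and 3 were lower in Gja9_null than in Gja9_het, as were 11.3% of all features. At the same threshold 1 gene of the lipid list was lower in each of these comparisons.

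Markers of other brain cells gave 0 called genes in any of the 3 comparisons. All 6 oligodendrocyte and precursor genes with values were lower in Gja9_null than in wildtype (5 of 6 after quantile normalization, cyclic loess, median or local centring), with a median of -0.49 (-0.18 after local centring). Pdgfra, of oligodendrocyte precursors, at -0.84 ± 0.34 was the 1 with an unadjusted p under 0.05, and it stood at -0.27 ± 0.21 after local centring, -0.33 ± 0.28 without the first Gja9_null array and -0.09 ± 0.34 without the dimmest 25% of probes. The summed signal of the 6 genes lay between 7.72 and 15.5 in Gja9_null, 15.0 and 18.8 in wildtype and 9.94 and 17.4 in Gja9_het. Much of that sum is Mbp, with array means of 2.91 and 2.94 in Gja9_null and 3.64 and 3.49 in wildtype. Its difference between these genotypes was -0.64 ± 0.92 (limma adjusted p = 0.853). The array means hide the spread between the 2 samples of an array, which enters this SE. Cnp, at -0.69 ± 0.70, stood at -0.91 without Gja9_null replicate 4 and at -0.48 without replicate 3, which share an array. Of 10 neuronal genes, 3 were higher and 7 lower in Gja9_null (6 and 4 after local centring), with a summed signal between 25 and 40.0 against 35.5 to 38.4 in wildtype. The summed signal of 7 microglia and macrophage genes lay between 3.86 and 4.84 in Gja9_null, 4.47 and 5.84 in wildtype and 5.57 and 5.96 in Gja9_het. Much of that sum is Tyrobp, a signalling adaptor gene of microglia, at -1.32 ± 0.42 between Gja9_null and Gja9_het (limma adjusted p = 0.174). C1qa and Lyz2 also read lower in Gja9_null than in Gja9_het, at -0.33 and -0.35, while C1qb, Fcer1g, Itgam and Laptm5 read higher, by 0.01 to 0.30. The summed signal of 9 endothelial and pericyte genes lay between 6.00 and 6.53 in Gja9_null and 5.31 and 7.46 in wildtype. That of 2 choroid plexus genes lay between 1.32 and 1.57 in Gja9_null and 0.815 and 1.64 in wildtype. That of 3 erythroid genes lay between 12.3 and 15.6 in Gja9_null and 8.28 and 15.4 in wildtype. The erythroid sum is mostly the globins Hba-a2 and Hbb-b1. Alas2, of erythroid haem synthesis, read the other way, at -1.45 ± 0.34 in Gja9_null against wildtype (limma adjusted p = 0.107) and -1.71 ± 0.34 against Gja9_het (limma adjusted p = 0.0576), and stood at -0.20 ± 0.18 against wildtype after local centring. The part of these markers in the values of Slc1a3 and Fabp7 was not tested.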

How the data were processed

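Per the labels' protocols, brain total RNA was isolated with Trizol, and dye (Cy5 or Cy3) was incorporated directly into cDNA from 60 micrograms of it. The label field gives Cy5 for odd and Cy3 for even replicates, and was followed where the labelling text of wildtype replicate 3 and Gja9_null replicate 1 names the other dye. The deposited values are log2 signals relative to each sample's mean signal, a scale settled from the values, since 2 to their power averages 1 in every sample. The authors' correction of background and dye and their probe filter are steps not given in the sources used here. Sample medians lay between -0.98 and -0.81, and no centring was applied. Of 28704 probes, 13443 had values, always in all 12 samples. Arrays have no depth, and their number limits the precision.

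Probes were named from the platform's probe table with symbols updated from RefSeq (10263 of 10356 probes with 1 gene), and clones of a gene were averaged, for 9514 features. Within a genotype, the Cy5 difference of samples 1 and 3 correlated with the Cy3 difference of samples 2 and 4 at 0.940 (wildtype), 0.933 (Gja9_null) and 0.919 (Gja9_het). Samples 1 and 2 were therefore assigned to the first array and 3 and 4 to the second. Differences were fitted with limma 3.58.1 in R 4.3.3 (lmFit, eBayes, two-sided, Benjamini-Hochberg over all features) on genotype and dye, with array as random block (correlation 0.927). Genotype differs only between arrays, yet the fit counts both colours in its degrees of freedom. Tables and plots were made in Python 3.11.15.

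Members, marker lists and the rule for named genes (all measured genes of the 2 families, up to 3 of smallest p per list of interest, and the 5 most alike) were chosen with earlier results of these data known. For other cell types most of the genes under this rule are given by count alone.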

Additional observations from a re-analysis of the deposited data

How the results depend on the processing

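The choice of the array block, array means, pairing, dye term or replicate block cannot move a difference in this balanced design, and moves its SE alone. The sign of the difference from wildtype was also part of how both genes were chosen, so its being kept is no sign of stability. Leaving out 1 sample at a time gave 0.85 to 0.95 for Gja9_null minus wildtype, -0.52 to -0.47 for Gja9_het minus wildtype and 1.35 to 1.45 for Gja9_null minus Gja9_het. For Fabp7 these ranges were 1.58 to 1.71, 1.67 to 1.81 and -0.15 to -0.03. Leaving out 1 sample keeps the other colour of its array in the fit. Values that moved by more than the SD between replicates were, for Slc1a3 against wildtype and against Gja9_het, 0.57 and 0.91 with local centring (the same on array means), 0.50 and 0.99 without the first Gja9_null array, and 1.30 and 1.79 without the second. For Fabp7 in Gja9_null and in Gja9_het against wildtype, they were 0.18 and 0.27 without the first wildtype array and 3.14 and 3.24 without the second. The Fabp7 difference between Gja9_null and Gja9_het ranged from -0.53 to 0.34. The Slc1a3 dye difference lost its call without the array block and with the other array pairing (both -0.25, limma adjusted p = 1), and lay between -0.27 and -0.21 when samples were left out, where that of Fabp7 lay between -0.12 and -0.02.

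The counts of features called give the background and depended strongly on the fit. For Gja9_null against wildtype (31) they were 1464 without the array block, 2 on array means, 7122 with the other pairing, 5 after quantile normalization, 8 after cyclic loess, 56 with local centring, 0 with local centring on array means, 3 with only these 2 genotypes, 7 without the dimmest 25% of probes and 56 at an adjusted p under 0.1. They were 51 and 781 without the first and second Gja9_null array, 7 and 5 without the first and second Gja9_het array, and 13 to 25 when samples were left out, the lowest without wildtype replicate 3. For Gja9_het against wildtype (0) they were 70 without the block, 5747 with the other pairing, 1 with local centring, 9 and 19 without the first and second wildtype array, and 0 when samples were left out. For Gja9_null against Gja9_het (26) they were 2119 without the block, 7543 with the other pairing, 64 with no dye term, 134 with local centring, 119 at an adjusted p under 0.1 and 1 with only these 2 genotypes. They were 0 on array means, with or without local centring, after median centring, quantile or cyclic loess normalization, and without the dimmest probes. Without the first wildtype array they were 43, without the Gja9_null arrays 95 and 804, without the Gja9_het arrays 0 and 1, and 0 to 20 when samples were left out. The cause was not tested, except that the array block and the array means take fewer independent values. Leaving out arrays other than the first of Gja9_null, and local centring on array means, were chosen after seeing the data.

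Replicate numbers were not taken to pair samples across genotypes, since not every same-numbered pair correlated in its deviations (-0.09 to 0.23). As a hint from the data to the contrary, 8 of 12 samples correlated best with their own number. With the replicate block, 45 features were called between Gja9_null and wildtype, 0 between Gja9_het and wildtype and 44 between Gja9_null and Gja9_het, and the SE of the Fabp7 differences was 0.48 in place of 0.67, that of Slc1a3 0.30 in place of 0.31. For single named genes other than Slc1a3 and Fabp7, 127 values passed the threshold under an alternative and not in the reported fit, most of them without the array block or with the other pairing. Another 162 moved by more than the SD between replicates, under local centring, without an array or, for a few, after quantile normalization, cyclic loess or without the dimmest probes. Numbl ranged from -2.94 to -0.94, Pdgfra from -1.35 to -0.09 and Alas2 from -1.92 to -0.20 between Gja9_null and wildtype. Each member rests on 1 clone, so no second clone could be compared, and the deposited values do not show how far a signal stood over background.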
